A study of Mus musculus with 9 samples.

Results

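The 7 genes Rnpc3, Snrnp25, Snrnp35, Snrnp48, Zmat5, Zcrb1 and Pdcd7 encode the proteins that are particular to the U11/U12 particle of the minor spliceosome. They were chosen by function and found by symbol among the 38215 genes of the count table; all 7 passed the filter on low counts that left 14944 genes for testing. RNA had been sequenced from bone marrow of C57BL/6J mice after sorting of LSK cells (Lineage- Sca1+ Kit+), the fraction that holds haematopoietic stem cells and multipotent progenitors. The genotype of all 9 libraries includes Jak2V617F, an activating mutation of the kinase Jak2 found in myeloproliferative neoplasms, all are labelled with tamoxifen as treatment, and the sorted cells were positive for both GFP and mCherry and taken at the end point. The 5 libraries called EV have the genotype Jak2V617F, and the other 4 have the genotype Jak2V617F-sgZrsr2, which the series' design text describes as Zrsr2 loss. What EV and sg stand for is not written in the labels used here, which also give no age, no driver of the Jak2 allele and no guide sequence. The titles number the EV libraries 1 to 5 and the sgZrsr2 libraries 1, 2, 3 and 5. Each is taken as 1 mouse, which the labels do not state, so p-values measure the spread between these libraries.

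The minor spliceosome removes U12-type introns, a rare class with its own splice site letters that is spread over genes of many pathways. U11 RNA pairs with the 5′ splice site of such an intron and U12 RNA with its branch site, and the pair enters the intron as a single particle, the U11/U12 di-snRNP, held together by its own set of proteins. Zrsr2, the gene targeted in these mice, encodes a factor that contacts the 3′ splice site of U12-type introns and is mutated in some myeloid cancers. The comparison of sgZrsr2 with EV therefore asks here whether the messages of the particle's own proteins were at another level when Zrsr2 was targeted. The values are sums over each gene and show neither splicing nor protein.

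The genes for the 48K and 65K proteins are known to carry a conserved element that imitates a pair of U12-type 5′ splice sites and is bound by the U11/U12 particle, which then steers their own splicing toward forms that are not translated. The element is printed because it links 2 of the 7 messages to the particle that their proteins build. The search planned first, for pairs of ATATCCTT with starts 10 to 40 bases apart, found a pair in 0 of the 7 genes. A looser search was then made of GENCODE M21 transcripts (GRCm38), for pairs of TATCCTT on the transcript strand at the same spacing. It found a pair in 2 of the 7 genes, Rnpc3 and Snrnp48. As the letters were loosened after the first result, this count is a description only. Over all 55450 genes with a transcript in that set, 40 (0.0721%) held such a pair, and among the 21951 protein-coding genes 32 (0.146%). The pairs below are written 5′ to 3′ on the gene strand, with each copy and the base before it in capitals.
Rnpc3: gtGTATCCTTtcttGTATCCTTtt
Snrnp48: caGTATCCTTtttgcaaatgATATCCTTtt
The Rnpc3 pair lies at chr3:113607235-113607258 (minus strand) in the 3′ UTR of 3 annotated transcripts, with its copies 12 bases apart. The Snrnp48 pair lies at chr13:38214666-38214695 (plus strand), 18 bases apart, within an annotated transcript that retains an intron. The 5′ end of U11 RNA (chr4:132270190-132270213, minus strand, GRCm38) shows the other side of the match. Its capitals, bases 3 to 7, are the reverse complement of CCTTT, which stands in both copies of both pairs.
Rnu11: aaAAAGGgcttctgtcgtgagtgg
With the letters planned first, ATATCCTT for both copies, 0 of the 7 genes and 5 of the 55450 genes (0.00902%) had a pair. A match of letters is a description of the sequence. Whether the element was used in these cells was not analysed here.

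Libraries held 23.2 to 45.6 M counts, of which mitochondrial genes took 2.27% to 4.07%. LSK markers were present throughout: 7 of 7 (Kit, Ly6a, Cd34, Flt3, Procr, Slamf1 and Meis1) had at least 109 counts in each library, and summed to 1349 to 1804 CPM (counts per M counts of the library, scaled by TMM factors) with EV and to 1507 to 1790.4 CPM with sgZrsr2. The T cell markers Cd3e, Cd3d, Cd3g and Cd8a summed to at most 0.931 CPM, and the B cell markers Cd79a, Cd79b and Ms4a1 to 14.9 to 33.8 CPM (Cd79b had 256 to 865 counts in a library). Of the mature neutrophil markers, Ly6g had at most 2 counts in a library. The others, S100a8, S100a9, Ngp, Camp and Ltf, reached 1398, 2340, 2188, 579 and 1235 counts, each in sgZrsr2 3. The summed markers of megakaryocytes (6 of 6 found), erythroid cells (6 of 6) and mature neutrophils (6 of 6) varied between libraries, from 121 to 286, 16.9 to 55.2 and 5.57 to 158 CPM with EV and from 215 to 461, 45.5 to 100.1 and 6.80 to 188 CPM with sgZrsr2. EV 5, sgZrsr2 3 and sgZrsr2 5 had the highest megakaryocyte and erythroid sums. The targeted gene Zrsr2 was at 50.6 to 62.2 CPM in the 5 EV libraries and at 31.7 to 44.4 CPM in the 4 sgZrsr2 libraries, which did not overlap (log2 fold change -0.46, SE 0.12; edgeR unadjusted p = 0.0032, adjusted p = 0.714). The closest libraries were sgZrsr2 1 and 2, with a median difference of 2.82% as a coefficient of variation. They were kept as separate samples.

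None of the 7 genes for U11/U12 proteins passed the adjusted threshold of 0.05 in edgeR's quasi-likelihood test, and 0 of 7 had an unadjusted p under 0.05. Among all 14944 genes tested 0 (0%) passed the adjusted threshold and 1024 (6.85%) had an unadjusted p under 0.05. The DESeq2 Wald test called 0 of the 7, against 16 of the 14925 genes to which it gave an adjusted p (0.107%). Of the 7, 5 were lower and 2 higher with sgZrsr2, beside 51.5% lower among all genes. The median log2 fold change of the 7 was -0.06, beside -0.01 over all genes tested. In 0 of the 7 were the groups separate, beside 3.06% of all genes (1.32% separate with sgZrsr2 lower). In these bulk samples, fewer cells of a type and less RNA per cell cannot be told apart.

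**Figure D1:**
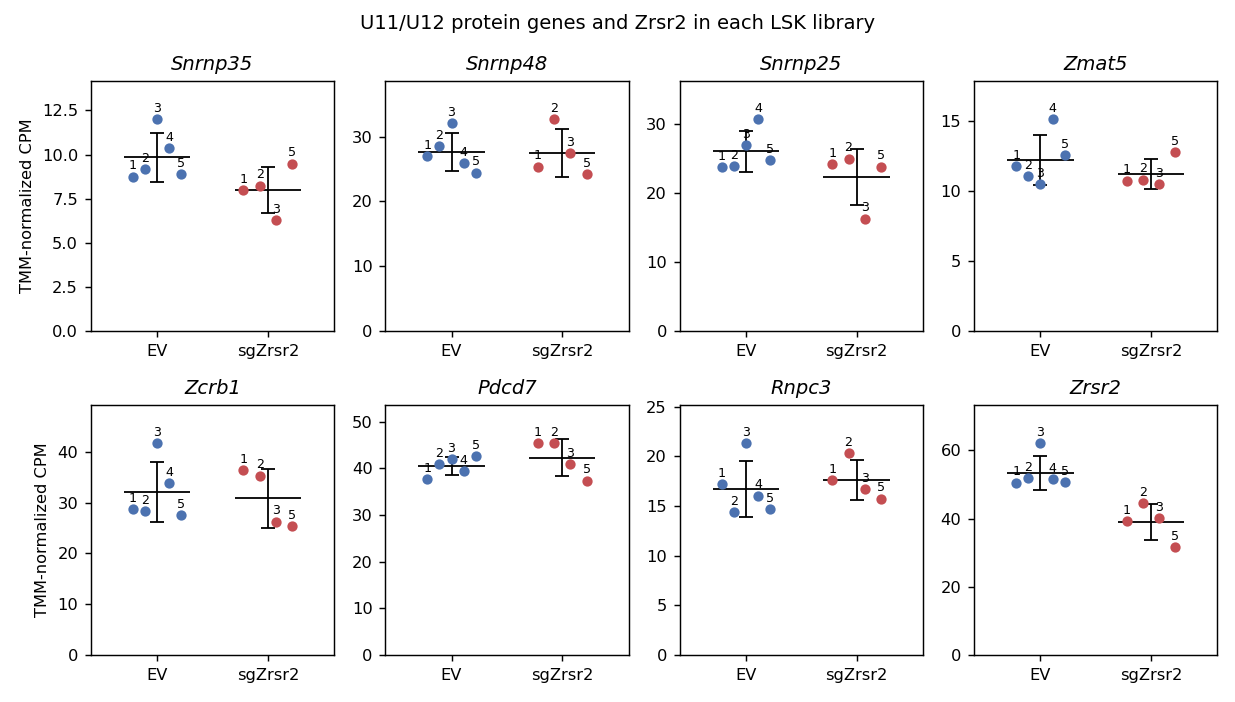
TMM-normalized CPM (y axis, from 0) of the 7 U11/U12 protein genes and of Zrsr2 in 5 EV (blue) and 4 sgZrsr2 (red) LSK libraries; numbers are those of the titles, the horizontal line is the group mean and the bar 1 SD. The groups overlap in each of the 7 genes and are separate for Zrsr2, at 50.6 to 62.2 against 31.7 to 44.4 CPM.

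Snrnp35, the 35K protein, is the counterpart in U11 of the U1-70K protein of the major spliceosome and is bound to U11 RNA. The gene (ENSMUSG00000029402; chromosome 5, 124483134 to 124491124, plus strand) was at 8.75, 9.17, 12.003, 10.4 and 8.90 CPM in EV 1 to 5. In sgZrsr2 1, 2, 3 and 5 the values were 7.97, 8.24, 6.30 and 9.49 CPM. Of the sgZrsr2 libraries, 3 lay below all EV libraries, while sgZrsr2 5 lay inside the EV range, so the groups overlapped. The EV mean was 9.84 ± 1.37 CPM (SD, n = 5) and the sgZrsr2 mean 7.999 ± 1.31 CPM (SD, n = 4; two-sided exact permutation p = 0.0794). The log2 fold change of -0.30 (SE 0.18, 95% interval -0.70 to 0.11) was the largest in size among the members (edgeR adjusted p = 0.728). It was -0.20 without sgZrsr2 3 and -0.39 without sgZrsr2 5. Snrnp35 also had the fewest reads of the 7, with 179 to 467 counts per library.

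Its counterpart Snrnp70, which encodes U1-70K, had 343 ± 32.4 CPM in EV (SD, n = 5), 333 ± 28.0 CPM in sgZrsr2 (SD, n = 4) and a log2 fold change of -0.04 (SE 0.11; edgeR adjusted p = 0.925). Per kilobase of annotated exon, the Snrnp70 level was 5.46 to 10.2 times that of Snrnp35 over the 9 libraries with the exons of all transcripts. With the exon length of protein-coding transcripts alone, the mean levels were 181 and 6.70 CPM per kilobase. The counts remain those of all transcripts. Only the length changes, from 7618 to 1868 bases in Snrnp70, while it stays at 1347 bases in Snrnp35. The difference between the changes of the 2 genes was not tested.

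Snrnp48, the 48K protein, has a zinc finger that touches the 5′ splice site paired with U11, and its gene holds the second pair printed above. The gene (ENSMUSG00000021431; chromosome 13, 38204939 to 38227663, plus strand) was at 26.9, 28.6, 32.1, 25.9 and 24.4 CPM in EV 1 to 5. Values of 25.4, 32.7, 27.4 and 24.3 CPM were found in sgZrsr2 1, 2, 3 and 5. Both the highest and the lowest of the 9 values belonged to sgZrsr2 libraries. The means were 27.6 ± 2.94 CPM (SD, n = 5) and 27.4 ± 3.73 CPM (SD, n = 4), with a two-sided exact permutation p of 0.921. The log2 fold change was -0.01 (SE 0.13), the smallest in size of the 7, and its 95% interval of -0.30 to 0.29 holds folds from 0.810 to 1.22.

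Snrnp25, the 25K protein, is a small U11 protein with a ubiquitin-like fold. The gene (ENSMUSG00000040767; chromosome 11, 32205415 to 32208984, plus strand) was at 23.8, 23.9, 27.0, 30.7 and 24.8 CPM in EV 1 to 5. In sgZrsr2 1, 2, 3 and 5 the values were 24.2, 25.03, 16.3 and 23.9 CPM. The values of sgZrsr2 1, 2 and 5 lay within the EV range, and sgZrsr2 3 alone lay below it. The means were 26.1 ± 2.91 CPM (SD, n = 5) and 22.4 ± 4.06 CPM (SD, n = 4; two-sided exact permutation p = 0.238). The log2 fold change was -0.22 (SE 0.16, 95% interval -0.57 to 0.12; edgeR adjusted p = 0.742) and without sgZrsr2 3 it was -0.10. That library also had the highest summed erythroid (100.1 CPM) and mature neutrophil (188 CPM) markers of the 9, whose part in its Snrnp25 value was not tested.

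Zmat5, the 20K protein, and Zcrb1, the 31K protein, are zinc finger proteins of the particle, and Zcrb1 also has an RNA recognition motif. Zmat5 (ENSMUSG00000009076; chromosome 11, 4704678 to 4737669, plus strand) was at 11.8, 11.1, 10.5, 15.2 and 12.6 CPM in EV 1 to 5. Values of 10.8, 10.8, 10.5 and 12.8 CPM were found in sgZrsr2 1, 2, 3 and 5. The groups overlapped, although sgZrsr2 1, 2 and 3 lay below EV 1, 2, 4 and 5. The value of sgZrsr2 5 lay inside the EV range, and EV 4 stood highest. The means were 12.2 ± 1.81 CPM (SD, n = 5) and 11.2 ± 1.07 CPM (SD, n = 4; two-sided exact permutation p = 0.381). The log2 fold change of -0.12 (SE 0.16, 95% interval -0.48 to 0.23) was -0.03 without EV 4. The expected counts of Zmat5 were whole numbers in 0 of 9 libraries, which means that RSEM split reads, and its level is uncertain. The last 778 bases of Zmat5 overlap Cabp7 on the opposite strand. In each library the counts of the 2 genes add up to a whole number, so the split was with Cabp7. Cabp7 had 2.08 to 16.74 counts, beside 242.36 to 683.31 for Zmat5. Its level was 0.202 ± 0.138 CPM in EV (SD, n = 5) and 0.465 ± 0.267 CPM in sgZrsr2 (SD, n = 4). Without a statement on strand in the sources, reads of the overlap cannot be told apart.

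Zcrb1 (ENSMUSG00000022635; chromosome 15, 93386097 to 93398334, minus strand) was at 28.8, 28.4, 41.8, 33.9 and 27.6 CPM in EV 1 to 5. In sgZrsr2 1, 2, 3 and 5 the values were 36.5, 35.3, 26.3 and 25.3 CPM. The sgZrsr2 libraries fell on either side of most EV libraries, with 1 and 2 high and 3 and 5 low. The means of 32.1 ± 5.96 CPM (SD, n = 5) and 30.9 ± 5.87 CPM (SD, n = 4) did not differ beyond this spread (two-sided exact permutation p = 0.746; log2 fold change -0.06, SE 0.17, 95% interval -0.43 to 0.32). Zcrb1 had the widest spread within groups of the 7, with a pooled SD of 0.26 on the log2 scale.

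Pdcd7, the 59K protein, connects the U11 side of the particle with the 65K protein on the U12 side. The gene (ENSMUSG00000041837; chromosome 9, 65346068 to 65359642, plus strand) was at 37.7, 40.9, 42.0, 39.4 and 42.6 CPM in EV 1 to 5. Values of 45.4, 45.4, 40.9 and 37.4 CPM were found in sgZrsr2 1, 2, 3 and 5. The highest and the lowest values were again both from sgZrsr2 libraries. The means were 40.5 ± 1.99 CPM (SD, n = 5) and 42.3 ± 3.89 CPM (SD, n = 4; two-sided exact permutation p = 0.429). Its log2 fold change of 0.06 (SE 0.10) had the narrowest 95% interval of the 7, -0.16 to 0.28, which holds folds from 0.894 to 1.22. Pdcd7 was also the steadiest member, with a pooled SD within groups of 0.10 on the log2 scale, lower than in all but 5.22% of the genes averaging 10 CPM or more.

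Rnpc3, the 65K protein, binds U12 RNA and Pdcd7 and so completes the bridge; changes in the human gene cause growth hormone deficiency. The gene (ENSMUSG00000027981; chromosome 3, 113605067 to 113630149, minus strand) was at 17.2, 14.4, 21.4, 16.05 and 14.7 CPM in EV 1 to 5. In sgZrsr2 1, 2, 3 and 5 the values were 17.6, 20.4, 16.7 and 15.7 CPM. All 4 sgZrsr2 values lay inside the EV range. The means were 16.7 ± 2.83 CPM (SD, n = 5) and 17.6 ± 1.98 CPM (SD, n = 4; two-sided exact permutation p = 0.571), and the log2 fold change was 0.07 (SE 0.16, 95% interval -0.28 to 0.42). Without EV 3 it was 0.17 and without sgZrsr2 2 it was -0.01. Rnpc3 overlaps Amy1 by 1633 bases on the same strand, and Amy1 was at 0 to 1.80 CPM. The counts of Rnpc3 were whole numbers in 6 of 9 libraries, among them EV 1 to 5. They were not whole in sgZrsr2 1, 3 and 5, at 394.54, 687.91 and 566.31. There Amy1 had 40.46, 15.09 and 5.69 counts, which give whole numbers when added to those of Rnpc3. The level of Rnpc3 is therefore uncertain in these sgZrsr2 libraries, which bears on 1 side of the comparison only.

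**Figure D2:**
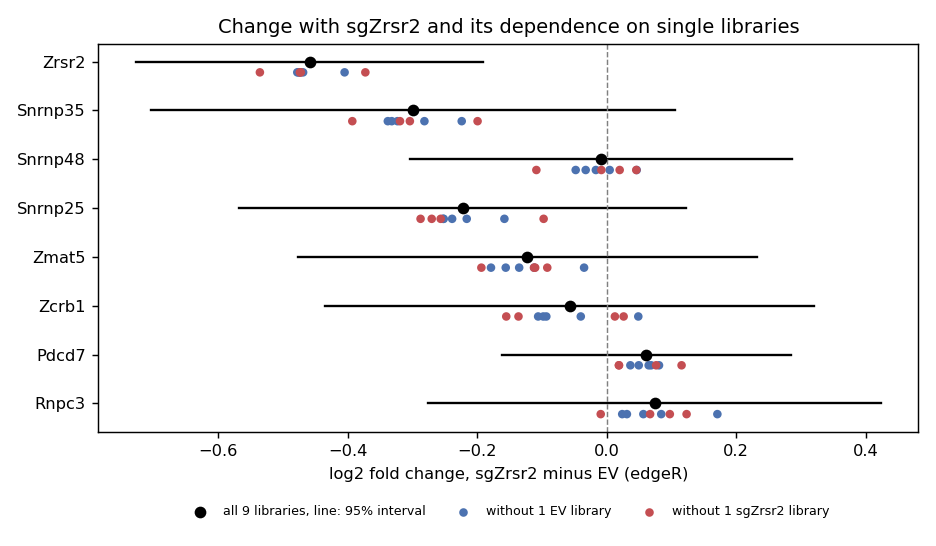
Log2 fold change of sgZrsr2 minus EV (x axis) from edgeR for Zrsr2 and the 7 U11/U12 protein genes; black points with lines are the estimates from all 9 libraries with 95% intervals, and small points are the estimates without 1 EV (blue) or 1 sgZrsr2 (red) library. The intervals of the 7 genes all cross 0, and Snrnp48, Zcrb1 and Rnpc3 have estimates on both sides of 0 when single libraries are left out.

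The precision of these comparisons is set by the spread between libraries. The 95% intervals of the 7 genes together run from -0.70 to 0.42 on the log2 scale, that is from 0.614-fold to 1.34-fold. For 3 of the 7, Snrnp35, Snrnp25 and Zmat5, the interval includes the estimate of Zrsr2 itself (-0.46). For Snrnp48, Zcrb1, Pdcd7 and Rnpc3 it does not. The 95% interval of Zrsr2, -0.73 to -0.19, overlaps that of each of the 7 but Pdcd7, so this split is not sharp. Counts of 179 to 1849 per gene and library were behind the values. A missed threshold does not show that the levels were equal.

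The 7 genes did not follow a single pattern over the libraries. Their summed level was 155, 156, 187, 171 and 155 CPM in EV 1 to 5 and 168, 178, 144 and 149 CPM in sgZrsr2 1, 2, 3 and 5. With TMM scaling, EV 3 had the highest sum and sgZrsr2 3 the lowest. By library totals alone, EV 4 and sgZrsr2 2 had higher sums than EV 3. The group means of 165 ± 13.996 CPM (SD, n = 5) and 160 ± 15.8 CPM (SD, n = 4) lay within 1 SD of each other. In EV 3, 6 of 7 genes lay above their own mean over the libraries (Zmat5 did not), and in sgZrsr2 3 only Snrnp48 did. EV 3 also had the lowest TMM factor, 0.894, against up to 1.07 in sgZrsr2 3. With TMM, 3 of the 7 genes (Rnpc3, Snrnp35 and Zcrb1) were highest in EV 3, and by library totals alone 2 were (Snrnp35 and Zcrb1).

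**Figure D3:**
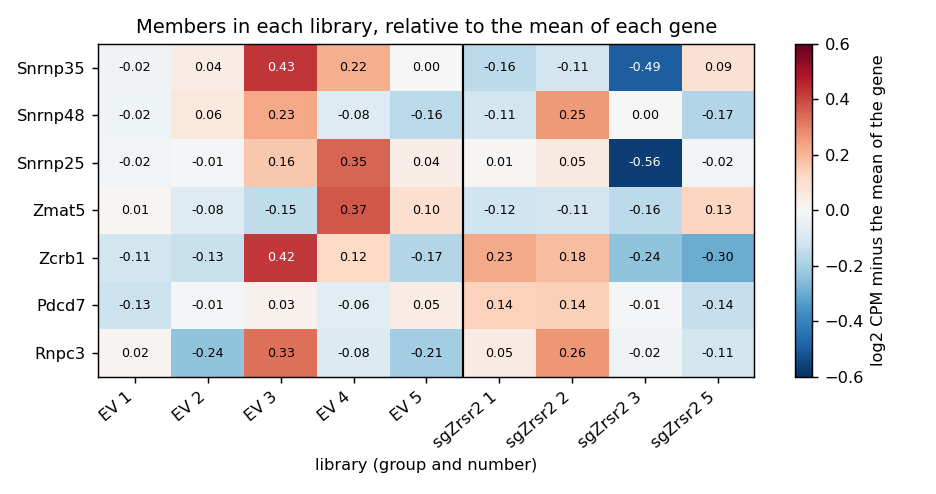
Log2 CPM of the 7 U11/U12 protein genes (rows) in each library (columns), minus the mean of the gene over the 9 libraries; red is above and blue below that mean, and the line parts EV from sgZrsr2. Snrnp35 and Snrnp25 share their lowest value in sgZrsr2 3 (-0.49 and -0.56), while Rnpc3 and Snrnp48 are both high in EV 3 (0.33 and 0.23) and sgZrsr2 2 (0.26 and 0.25).

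Likeness between genes was described by the root mean square difference of their centred log2 CPM over the 9 libraries, where 0 is an identical course. Of the 21 pairs among the 7 genes, Rnpc3 and Snrnp48, the genes with the printed element, were the closest (0.12). Snrnp25 and Snrnp35, in which no such pair of letters was found, followed at 0.13. A link between likeness and the element was not tested. The least alike were Zmat5 and Zcrb1 (0.31). Against Rnpc3, 1.48% of the 9630 genes averaging 10 CPM or more came as near as Snrnp48 or nearer. The genes nearest to Rnpc3 were Fam54b (0.08) and Syf2 (0.08), and those nearest to Snrnp48 were Ubxn4 (0.07) and Rtn4 (0.08). Nearest to Snrnp35 were Elp5 (0.06) and Psme2 (0.07), and nearest to Snrnp25 were Pdia3 (0.05) and Exosc8 (0.05). For Zmat5 they were Acad9 (0.06) and Eci1 (0.07), for Zcrb1 Fth1 (0.05) and Prdx6 (0.06), and for Pdcd7 Sec22b (0.04) and Cdk2 (0.05). All values come from the same 9 libraries, whose depth and make-up differ, and a median gene lay 0.25 to 0.32 from the member it was compared with.

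Of the 7 genes, 2 start head to head with another gene on the opposite strand. Zcrb1 starts 15 bases from Pphln1, whose level was 88.9 ± 13.1 CPM in EV (SD, n = 5) and 76.3 ± 11.3 CPM in sgZrsr2 (SD, n = 4; log2 fold change -0.22, SE 0.14; edgeR adjusted p = 0.728). The root mean square difference between them was 0.14, and 6.92% of the genes averaging 10 CPM or more came as near to Zcrb1. Zmat5 starts 335 bases from Uqcr10, a subunit gene of respiratory complex III, with a level of 59.2 ± 16.03 CPM in EV (SD, n = 5) and 43.0 ± 8.24 CPM in sgZrsr2 (SD, n = 4; log2 fold change -0.46, SE 0.21; edgeR adjusted p = 0.714). Here the difference was 0.32, so the neighbour was no nearer to Zmat5 than most genes (60.1% came as near).

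Promoters were compared because 7 of 7 genes had an entry in the RefSeq table (GRCm38.p6, 250 bases before to 50 after the start). The motif CCGGAAG, the core bound by ETS family factors, was chosen after the promoters had been seen and was searched on both strands, so CTTCCGG also counts. It stood in 3 of the 7, Rnpc3, Pdcd7 and Zcrb1, and in 2910 of all 32851 promoters in the table (8.86%). The matches are shown with their surroundings, in capitals, on the gene strand, to let the sites be compared.
Rnpc3: gagttcggCCGGAAG
Pdcd7: acgcctcgCTTCCGGgaagtgag
Zcrb1: taaaggcaCTTCCGGcgcgcgcg
They lie at chr3:113630100-113630114 (minus strand), chr9:65346019-65346041 (plus strand) and chr15:93398340-93398362 (minus strand). The binding of any factor was not analysed here.

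Levels between the 7 genes were compared per kilobase of exon in GENCODE M21, and the order depended on which transcripts gave the length. With the exons of all transcripts, Snrnp25 was highest at 23.5 ± 3.62 CPM per kilobase (SD, n = 9), followed by Pdcd7 (16.5 ± 1.17), Zcrb1 (10.3 ± 1.81), Zmat5 (9.45 ± 1.22), Snrnp35 (6.70 ± 1.178), Snrnp48 (2.72 ± 0.31) and Rnpc3 (2.58 ± 0.36). Neighbours in this order overlapped in range except Pdcd7 and Zcrb1, and Snrnp35 and Snrnp48. With the exon length of protein-coding transcripts alone, Zcrb1 stood at 35.6 ± 6.29 and Snrnp48 at 15.3 ± 1.72 CPM per kilobase. Setting all other transcript classes aside cuts that length from 10129 to 1795 bases in Snrnp48 and from 3074 to 886 bases in Zcrb1. The counts remain those of all transcripts. Under both lengths Rnpc3 was the lowest of the 7 (3.47 ± 0.48 with protein-coding transcripts), and Snrnp35 lay above Rnpc3 in 9 of 9 libraries with that length. Zcrb1 has 5 annotated transcripts with a retained intron and 1 marked for nonsense-mediated decay among 8, and Snrnp48 has 2 with a retained intron and 3 of other classes among 7. The gene sums do not tell these forms apart.

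**Figure D4:**
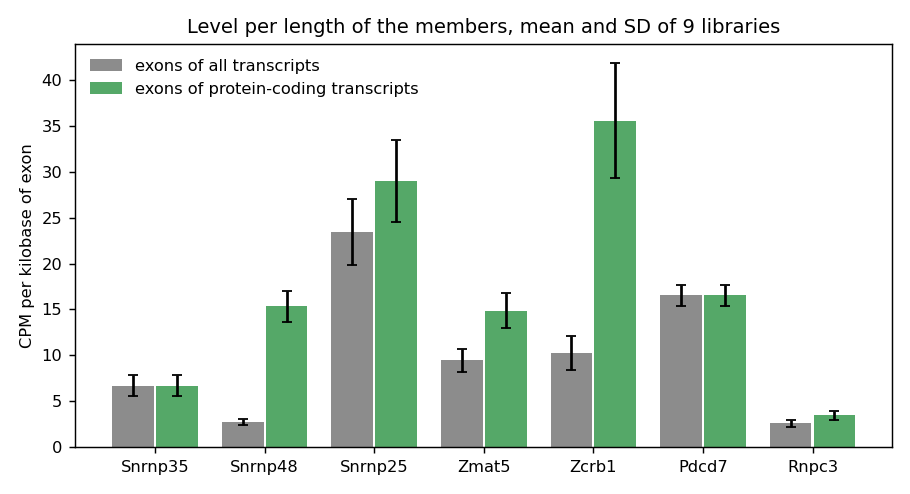
Mean level of each U11/U12 protein gene over the 9 libraries in CPM per kilobase of exon (y axis, from 0), with bars of 1 SD, for exons of all annotated transcripts (grey) and of protein-coding transcripts only (green). Snrnp48 and Zcrb1 move most, from 2.72 to 15.3 and from 10.3 to 35.6, and Rnpc3 is the lowest with both lengths.

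The RNA partners of these proteins could not be followed in polyadenylated libraries, where 2 of the 4 snRNA genes were matched. U11 (Rnu11) had 0 to 5 counts and U12 (Rnu12) 0 to 3 counts in a library, and neither passed the filter. Of 10 other genes of the minor spliceosome, all tested, 0 passed the adjusted threshold in either direction. Zrsr2 was lower and Rbm41 higher at an unadjusted p under 0.05, beside 2.98% lower and 3.87% higher at that level among all genes. Rbm41, which encodes an RNA-binding protein related to the 65K protein, was at 13.5, 12.3, 9.98, 9.35 and 15.2 CPM in EV 1 to 5. Values of 19.0, 19.5, 15.8 and 13.6 CPM were found in sgZrsr2 1, 2, 3 and 5. Only sgZrsr2 5 fell within the EV range (log2 fold change 0.49, SE 0.19; edgeR p = 0.0245, adjusted p = 0.714; two-sided exact permutation p = 0.0317). The paralog Zrsr1 (log2 fold change 0.38, SE 0.22) and Rbm48 (0.14, SE 0.15) had edgeR adjusted p of 0.720 and 0.817, and the median of the 10 was 0.08.

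Beside them stand the proteins of the major spliceosome and those that both spliceosomes use. The 3 U1 proteins had a median log2 fold change of -0.07 and 3 of 3 were lower; the lowest was Snrpa at -0.16 (SE 0.15). The 5 U2 proteins, all lower, had a median of -0.21, and Snrpa1 had an unadjusted edgeR p of 0.0496 (log2 fold change -0.41, SE 0.18; adjusted p = 0.714). The 7 Sm proteins, which form the ring around both classes of snRNA, were lower in 7 of 7, beside 51.5% of all genes, with a median of -0.28 and a range of -0.34 (Snrpd3) to -0.14. In each of the 7 Sm genes sgZrsr2 1 and 2 lay inside the EV range and sgZrsr2 3 lay below it, and in 4 of them sgZrsr2 5 did too. These latter 2 libraries had the highest megakaryocyte and erythroid marker sums. Leaving them and EV 5 out kept EV 1 to 4 and, of the sgZrsr2 libraries, only 1 and 2, the closest pair. EV 4 was kept with a megakaryocyte sum of 276 CPM, near the 286 CPM of EV 5. In that fit the Sm median was -0.03 with 7 of 7 still lower, beside a median of -0.03 and 53.7% lower over all genes. As sgZrsr2 3, low in each Sm gene, was among those left out, a median nearer 0 partly follows from that choice. With limma-voom, quality weights and all 9 libraries the Sm median was 0.01, with 3 of 7 lower. Other settings moved it less toward 0, and 7 of 7 stayed lower. The Sm median was -0.29 with DESeq2. Leaving out 1 library at a time gave Sm medians from -0.43 (without sgZrsr2 1) to -0.14 (without sgZrsr2 3). The 7 SF3B proteins, which hold the branch site, had a median of -0.16 with 6 lower, and the 14 tri-snRNP proteins a median of -0.13 with 11 lower. Without the same 3 libraries, the medians of the U1, U2, SF3B and tri-snRNP lists were -0.14, -0.012, -0.0084 and -0.08, with 2 of 3, 3 of 5, 4 of 7 and 9 of 14 lower. With limma-voom and quality weights these 4 medians were -0.011, -0.028, 0.031 and 0.029. Lower there were 2 of 3, 3 of 5, 1 of 7 and 5 of 14, beside 53% of all genes. DESeq2 gave -0.08, -0.21, -0.16 and -0.13, with 3 of 3, 5 of 5, 6 of 7 and 12 of 14 lower. Without sgZrsr2 3 alone the 4 medians were -0.085, -0.11, -0.05 and -0.06. Lower in that fit were 2 of 3, 5 of 5, 6 of 7 and 9 of 14, beside 54.7% of all genes. None of these 36 genes passed the adjusted threshold. The U11/U12 proteins stood at -0.06, at 0.04 without EV 5, sgZrsr2 3 and sgZrsr2 5, and at 0.02 with limma-voom. With 2 other kinds of scaling factor, the median of all genes moved from -0.01 to at most -0.02.

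**Figure D5:**
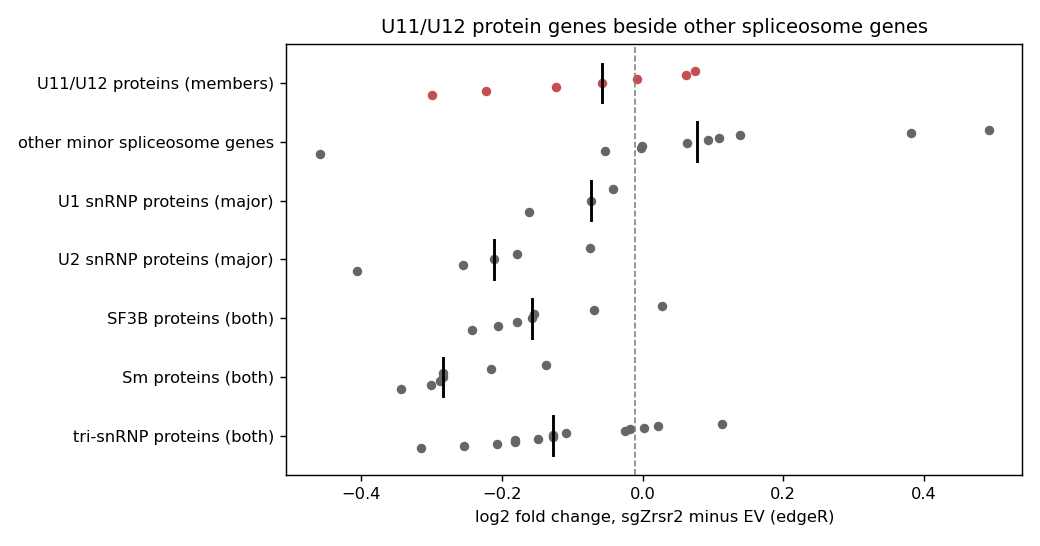
Log2 fold change of sgZrsr2 minus EV (x axis, edgeR) for the tested genes of each spliceosome list (rows); red points are the 7 U11/U12 protein genes, grey points the other lists, black ticks the list medians and the dashed line the median of all genes tested (-0.01). With all 9 libraries, the 7 Sm protein genes lie below 0 (median -0.28) and the U11/U12 genes on both sides (median -0.06). Without EV 5, sgZrsr2 3 and sgZrsr2 5, which are high in megakaryocyte markers and not left out in the plot, the medians are -0.03 and 0.04. Only sgZrsr2 1 and sgZrsr2 2 then remain in that group. Without sgZrsr2 3 alone, the medians are -0.14 and -0.0083.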

How the data were processed

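RNA sequencing of polyadenylated RNA from 5 ng of total RNA per library was deposited by the authors as RSEM expected counts per Ensembl gene, not normalized, with 1 column per library. The submitters' processing notes name cutadapt 1.11, RSEM 1.2.30 and the build GRCm38; aligner, annotation release and strandedness are not given in the sources used here. Expected counts were rounded to whole numbers, filtered with filterByExpr (minimum count 10, minimum total 15; 14944 genes, 99.9% of counts), scaled by TMM and compared with edgeR 4.0.16 (glmQLFit and glmQLFTest, R 4.3.3), adjusting p-values by Benjamini-Hochberg across the 14944 genes. The SE is the log2 fold change divided by the root of F. Single genes were also compared by two-sided exact permutation of CPM over 126 splits, where the smallest possible p is 0.0159. Depth of 23.2 to 45.6 M counts limits the precision of genes with few counts.

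The members and lists were chosen with earlier results of these data known. Named genes were the 7 members and Zrsr2, at most the 4 genes with the smallest p in each list, and the 2 genes nearest to each member among those with a mean of at least 10 CPM; neighbouring genes, Snrnp70 and marker genes are named beyond this rule. Lists were matched by symbol or Ensembl ID: the table has Sf3b6 as 0610009D07Rik, Scnm1 as Scnm1-ps and Cenatac as Ccdc84. Alternatives were other scaling factors and filters, DESeq2 1.42.0, limma 3.58.1 voom with quality weights, unrounded counts, a replicate block, and libraries left out or averaged. The length taken from protein-coding transcripts, the TATCCTT search and the recomputation of the lists under each alternative were added after the data were seen. Introns were not searched, since no genome sequence was used here. Figures were drawn with matplotlib 3.10.9. In the lists of LSK and B cell markers, 1 gene each is not reported here.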

Additional observations from a re-analysis of the deposited data

Results flagged for a closer look

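A library far from the rest of its group was looked for in 16 sets of values, the 7 genes and their sum in both groups, by dividing its distance from the next value by the whole spread of its group. In this search 2 stood out, where chance gives about 0.8. Snrnp25 was at 16.3 CPM in sgZrsr2 3, while sgZrsr2 1, 2 and 5 had 23.9 to 25.03 CPM, a share of 0.867. Zmat5 was at 12.8 CPM in sgZrsr2 5, while sgZrsr2 1, 2 and 3 had 10.5 to 10.8 CPM, a share of 0.859.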

How the results depend on the processing

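None of the 7 genes passed the adjusted threshold in any of the 10 alternatives or the 9 fits without 1 library (0 of 7 in each, at unadjusted p under 0.05 as well). Over all genes, the DESeq2 Wald test called 16 and averaging sgZrsr2 1 and 2 called 1; the other alternatives called 0. Snrnp48 changed sign with limma-voom and quality weights (0.020) and without the 3 libraries high in megakaryocyte genes, EV 5, sgZrsr2 3 and sgZrsr2 5 (0.041), as did Zcrb1 (0.15 and 0.12); the cause was not tested. In these settings 3 of 7 genes were lower instead of 5. The setting without those libraries kept only sgZrsr2 1 and 2 of the sgZrsr2 group. Leaving out each library gave log2 fold changes from -0.54 to -0.37 for Zrsr2, -0.39 to -0.20 for Snrnp35, -0.29 to -0.10 for Snrnp25, -0.19 to -0.03 for Zmat5, -0.11 to 0.046 for Snrnp48, -0.16 to 0.049 for Zcrb1, 0.02 to 0.12 for Pdcd7 and -0.0092 to 0.17 for Rnpc3, and medians of the 7 from -0.11 to 0.046. Over all genes, those at unadjusted p under 0.05 numbered 1024, and 609 without EV 4, 1692 without the 3 libraries high in megakaryocyte genes and 2551 with limma-voom. With protein-coding transcripts as the length, levels moved to 3.47 (Rnpc3), 29.0 (Snrnp25), 15.3 (Snrnp48), 14.9 (Zmat5) and 35.6 (Zcrb1) CPM per kilobase. The numbers in the titles did not pair the libraries consistently. Deviations from the group means correlated at -0.45 to 0.41 over the 4 pairs. Of the sgZrsr2 libraries, 1 of 4 (sgZrsr2 5, at 0.41) correlated best with its own number. Whether the numbers mark pairs cannot be decided from these values. With the replicate block over 8 libraries (EV 4 dropped), log2 fold changes were -0.28 for Snrnp35, -0.17 for Snrnp25, -0.04 for Zmat5, -0.03 for Snrnp48 and Zcrb1, 0.05 for Pdcd7 and 0.07 for Rnpc3, 0 of 7 passed, and genes at unadjusted p under 0.05 fell to 333 from 1024.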
